A study of Homo sapiens with 120 samples.

Results

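Integrins and laminins were followed at the RNA level through the differentiation of H1, an established line of human embryonic stem cells. The members were every gene whose symbol names an integrin alpha chain, an integrin beta chain or a laminin alpha, beta or gamma chain. This rule took 38 genes, 26 integrin and 12 laminin, of the 62703 genes in the deposited table. In one arm, KO cells (the long non-coding RNA gene lncPRESS1 knocked out), ΔATG cells (from the name, lncPRESS1 without a start codon) and unedited WT cells were collected at day 0. They were collected again on days 1 to 5 of 3 protocols, which were BMP4 toward mesoderm, inhibition of SMAD signalling toward neuroectoderm (SMADi) and a kit medium toward definitive endoderm (Endo). In the other arm, H1 cells carried lncPRESS1, lncPRESS1 ΔATG, lncSIRP or an empty vector, each at 3 stages named early, middle and late. Each of the 60 groups had 2 libraries, a and b, giving 96 libraries of differentiation and 24 of overexpression. The sources used here do not give the day of each stage, the nature of lncSIRP or the number of clones behind an edit, so edit and clone cannot be told apart.

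An integrin is a cell-surface receptor made of 1 alpha and 1 beta chain that binds matrix outside the cell and links it to the actin cytoskeleton. A laminin is a secreted trimer of 1 alpha, 1 beta and 1 gamma chain and the scaffold of basement membranes. Pluripotent stem cells in culture adhere to laminin through alpha6 beta1 and to vitronectin through alphaV beta5, and the cells that leave the epithelium during gastrulation change both their receptors and their basement membrane.

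The depth of a library was 38298603 to 71219834 in the differentiation arm and from 40113893 to 65466595 in the overexpression arm. Values are CPM, counts per library total after scaling; log2 fold changes are given ± SE, and rose or fell is written only where edgeR's quasi-likelihood test gave an adjusted p under 0.05 over all genes tested. Of the members, 37 passed the filter on low counts in the differentiation arm (all but LAMB4, which reached at most 0.199 CPM in any library) and 36 in the overexpression arm (all but LAMB4 and ITGAD). The labels do not say whether libraries a and b came from separate cultures, so p-values reflect the spread between libraries, which may be technical. In bulk RNA, fewer cells of a type and less RNA per cell cannot be told apart. LNCPRESS1, the edited gene, had 13.2 and 5.60 CPM in KO, 53.2 and 35.2 in ΔATG and 21.4 and 40.6 in WT at day 0. The libraries labelled KO were thus the lowest on that day and still held its RNA. The order differed by protocol. At day 5 of BMP4 it had 3.22 and 3.66 CPM in KO, 12.5 and 10.5 in ΔATG and 14.3 and 12.9 in WT. At day 4 of SMADi both edited lines were low, with 0.0373 and 0.124, 0.114 and 0.105, and 5.95 and 6.19 in the same order. At day 1 of Endo KO was not below WT, with 1.65 and 1.88, 1.85 and 1.63, and 1.65 and 1.05.

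Promoters of 4 members are printed because these genes were called in both edited lines under SMAD inhibition, a pair higher (ITGA4, ITGA5) and a pair lower (LAMA2, LAMB1). Each run is 250 bases before and 50 after a RefSeq start site in GRCh38.p14, 5′ to 3′ on the gene's own strand, and capitals mark the motifs that were searched. ITGA4 lies on the plus strand at chr2:181457136-181457435, ITGA5 on the minus strand at chr12:54419217-54419516, LAMA2 on the plus strand at chr6:128882888-128883187 and LAMB1 on the minus strand at chr7:108003112-108003411.
ITGA4: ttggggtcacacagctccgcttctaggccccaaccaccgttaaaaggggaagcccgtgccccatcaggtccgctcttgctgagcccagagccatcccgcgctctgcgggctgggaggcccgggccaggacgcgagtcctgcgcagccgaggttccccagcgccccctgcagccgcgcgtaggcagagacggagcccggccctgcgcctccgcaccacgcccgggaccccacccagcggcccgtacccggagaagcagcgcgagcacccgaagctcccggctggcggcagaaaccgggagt
ITGA5: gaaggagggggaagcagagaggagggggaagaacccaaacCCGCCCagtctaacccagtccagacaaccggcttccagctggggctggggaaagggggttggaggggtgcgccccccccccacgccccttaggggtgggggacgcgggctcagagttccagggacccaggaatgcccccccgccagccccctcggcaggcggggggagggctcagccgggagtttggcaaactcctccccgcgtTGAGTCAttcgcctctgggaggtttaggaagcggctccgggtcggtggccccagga
LAMA2: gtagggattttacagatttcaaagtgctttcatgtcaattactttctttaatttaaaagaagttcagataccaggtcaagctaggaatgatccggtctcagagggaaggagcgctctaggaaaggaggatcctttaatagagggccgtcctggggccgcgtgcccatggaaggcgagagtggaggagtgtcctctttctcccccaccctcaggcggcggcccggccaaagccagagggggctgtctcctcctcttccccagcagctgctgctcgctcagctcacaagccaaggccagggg
LAMB1: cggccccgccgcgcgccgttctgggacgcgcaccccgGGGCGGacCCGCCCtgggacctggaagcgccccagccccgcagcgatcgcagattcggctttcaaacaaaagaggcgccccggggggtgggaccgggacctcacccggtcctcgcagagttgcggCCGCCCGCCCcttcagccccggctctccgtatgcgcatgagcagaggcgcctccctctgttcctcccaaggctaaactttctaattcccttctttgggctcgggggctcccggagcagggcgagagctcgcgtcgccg
The motifs searched, on both strands, were GGGCGG (the GC box), TGANTCA (the AP-1 element), CCAAT and TATAAA. The LAMB1 window held 4 GC boxes, a pair of them overlapping in the third run of capitals. The ITGA5 window held 1 GC box and 1 TGANTCA, and the windows of ITGA4 and LAMA2 held none of the 4 motifs. Over all 35116 windows of the RefSeq table, 44.95% held GGGCGG, 7.709% TGANTCA, 34.61% CCAAT and 11.53% TATAAA. The table matched 26 of the 38 members in 33 windows, of which 19 held GGGCGG, 3 TGANTCA, 6 CCAAT and 2 TATAAA. G and C made up 72.3% of the ITGA4 window, 69.3% of ITGA5, 55.3% of LAMA2 and 71.0% of LAMB1, against a median of 58.67% over all windows. A match is a description of these letters and not a bound site.

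In WT stem cells at day 0 the chains with the highest level per kb of merged exons were ITGB1, LAMA5, ITGB5, ITGA6, LAMC1 and LAMB2, in that order. Per kb of the longest transcript the order differed, with ITGB5 above LAMA5 and LAMB2 above LAMC1. ITGB1 (ENSG00000150093), the beta chain shared by most matrix-binding alpha chains, lies on chromosome 10 from 32900319 to 33005792 and averaged 56.4 CPM per kb. LAMA5, the alpha chain of the laminins that stem cells make themselves, averaged 34.7 CPM per kb, and ITGB5, the partner of alphaV, 32.4; their libraries overlapped. ITGA6 (20.7), LAMC1 (20.5) and LAMB2 (20.0 CPM per kb) overlapped each other as well. ITGA7, a laminin receptor known from muscle, followed at 12.8 CPM per kb, then LAMB1 at 9.48 and ITGA5, the fibronectin receptor chain, at 6.74. The chains of leukocyte receptors were low, with ITGB2 at 0.0759 and ITGAX at 0.0140 CPM per kb, and ITGB6 and LAMB4 were at 0 in both WT libraries.

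Within each class of chains a few genes carried most of the RNA. ITGA6 held 35.3% ± 2.8 of the integrin alpha total per kb at day 0 (SD, n = 2), ITGB1 62.0% ± 2.2 of the beta total and LAMA5 81.1% ± 1.9 of the laminin alpha total. LAMB2 held 67.0% ± 3.9 of the laminin beta total and LAMB1 32.0% ± 4.1, while LAMC1 held 69.7% ± 0.16 of the gamma total.

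**Figure D1:**
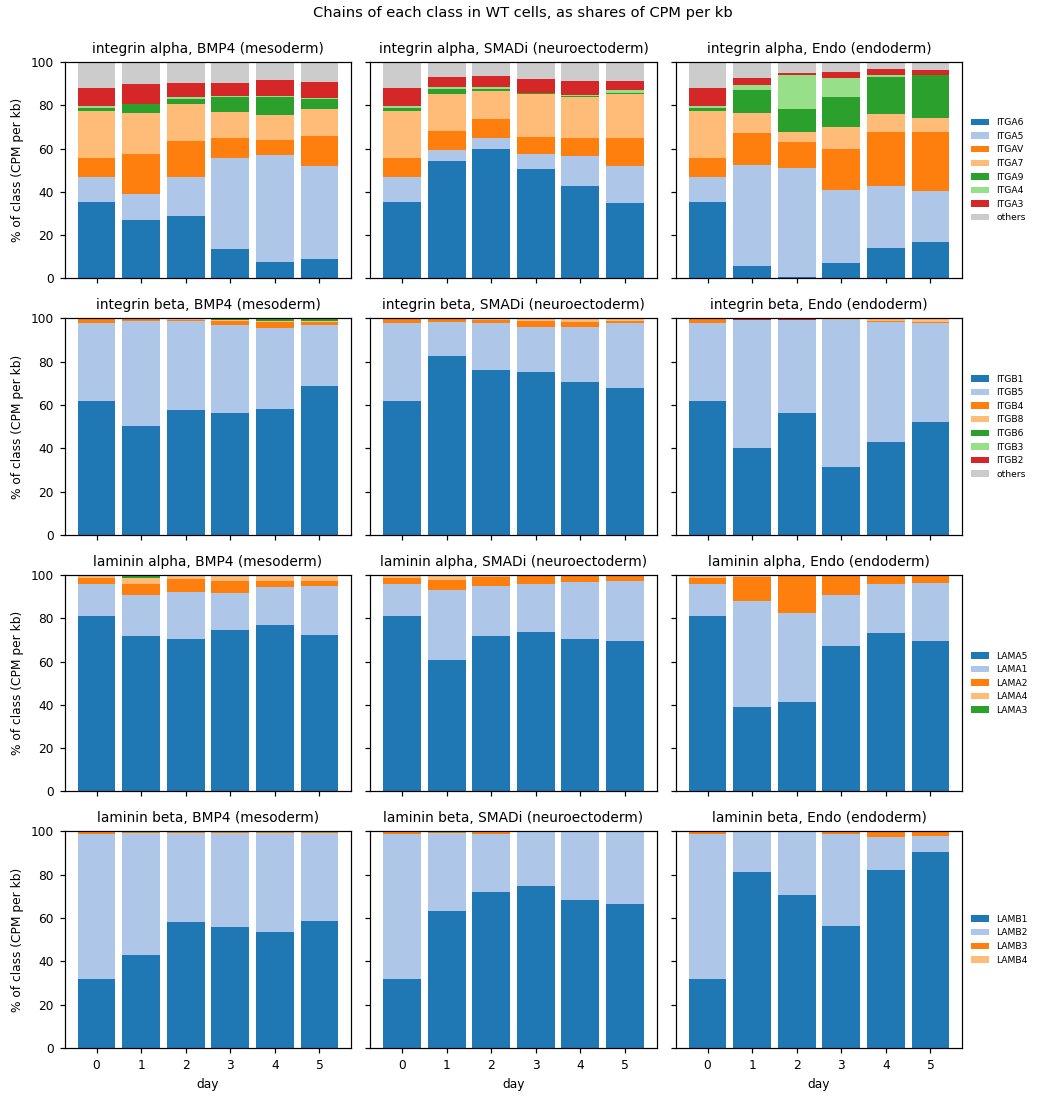
Share of integrin alpha, integrin beta, laminin alpha and laminin beta chains by day in WT cells, in percent of the class total in CPM per kb of merged exons (mean of 2 libraries), one column of panels per protocol. LAMB1 replaced LAMB2 as the leading laminin beta chain in all 3 protocols by day 5, with 90.3% of the class in Endo. The leading integrin alpha chain at day 5 was ITGA5 in BMP4, ITGA6 in SMADi and ITGAV in Endo. Per kb of the longest transcript, ITGA5 came before ITGAV in Endo.

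In WT cells the share of chains called at day 5 was near that of all genes in each protocol, and single chains moved by large amounts. Against day 0, 13 of 37 members rose and 5 fell at day 5 of BMP4, or 48.6% of the members against 41.9% of all genes tested (21.6% higher, 20.3% lower). At day 5 of SMADi 6 rose and 12 fell, or 48.6% against 51.5% of all genes (25.6% higher, 25.9% lower). At day 5 of Endo 15 rose and 11 fell, or 70.3% against 62.4% (30.5% higher, 31.9% lower). The median log2 change of the members was 0.24, -0.31 and -0.11 in BMP4, SMADi and Endo, beside medians of 0.00, 0.00 and -0.05 over all genes. The 3 comparisons share the day 0 libraries.

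LAMB1, the beta chain of the laminins of early embryos, rose in all 3 protocols. It had 295 and 338 CPM at day 5 of BMP4, 284 and 244 in SMADi and 767 and 792 in Endo, against 79.0 and 75.4 at day 0, which gave log2 changes of 2.03 ± 0.08 (adjusted p = 2.31e-28), 1.77 ± 0.08 (adjusted p = 2.33e-26) and 3.34 ± 0.08 (adjusted p = 2.31e-38). All 6 day 5 libraries were above both day 0 libraries. ITGA5 rose in all 3 as well, by 2.21 ± 0.14 in BMP4, 0.83 ± 0.14 in SMADi and 1.85 ± 0.14 in Endo on the log2 scale. ITGB8, which pairs with alphaV to release active TGF-beta, rose by 1.17 ± 0.31, 2.52 ± 0.32 and 3.98 ± 0.33 in the same order.

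Other chains parted by protocol. LAMC3, the third gamma chain, had 47.0 and 44.3 CPM at day 5 of BMP4, 0.897 and 0.936 in SMADi and 49.9 and 46.8 in Endo, against 47.5 and 41.7 at day 0. It fell in SMADi (log2 change -5.59 ± 0.23, adjusted p = 3.45e-28), and the direct test at day 5 put it higher in Endo than in SMADi by 5.71 ± 0.23 and higher in BMP4 than in SMADi by 5.63 ± 0.23. ITGA9, a receptor chain for tenascin and other ligands, reached 161 and 176 CPM at day 5 of Endo, 23.4 and 34.1 in BMP4 and 2.50 and 3.22 in SMADi, against 8.57 and 6.36 at day 0. Endo exceeded BMP4 by 2.55 ± 0.18 (adjusted p = 3.6e-18) and SMADi by 5.88 ± 0.22 (adjusted p = 1.96e-30) on the log2 scale. Between protocols at day 5, 26 members differed between Endo and BMP4 (57.6% of all genes did), 28 between Endo and SMADi (58.9%) and 27 between BMP4 and SMADi (52.3%), of which 23 were higher in BMP4 (26.8% of all genes were).

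ITGA6 (ENSG00000091409, chromosome 2 from 172427354 to 172506282), the alpha chain of the laminin receptor of stem cells, passed through a trough in Endo. WT libraries had 149 and 121 CPM at day 0, 18.6 and 20.7 at day 1, 3.15 and 4.14 at day 2, 38.7 and 33.8 at day 3, 80.1 and 84.4 at day 4 and 115 and 113 at day 5. The 2 libraries of each day from 1 to 5 stood apart from those of every other day. At day 2 the log2 change from day 0 was -5.22 ± 0.23 (adjusted p = 1.85e-26), and at day 5 it was -0.24 ± 0.19 (adjusted p = 0.256). ITGA4, the alpha chain that binds VCAM1 and fibronectin, ran the other way, with 3.91 and 4.43 CPM at day 0, 9.08 and 8.41 at day 1, 124 and 123 at day 2, 51.1 and 53.7 at day 3, 6.69 and 7.91 at day 4 and 3.03 and 2.25 at day 5 of Endo in WT. Its rise at day 2 was 4.89 ± 0.24 on the log2 scale (adjusted p = 1.03e-24). In BMP4, ITGA6 fell to 41.2 and 41.2 CPM at day 5 (-1.71 ± 0.19, adjusted p = 7.99e-11), and ITGA8 and ITGB6, both near 0 at day 0, were called higher.

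**Figure D2:**
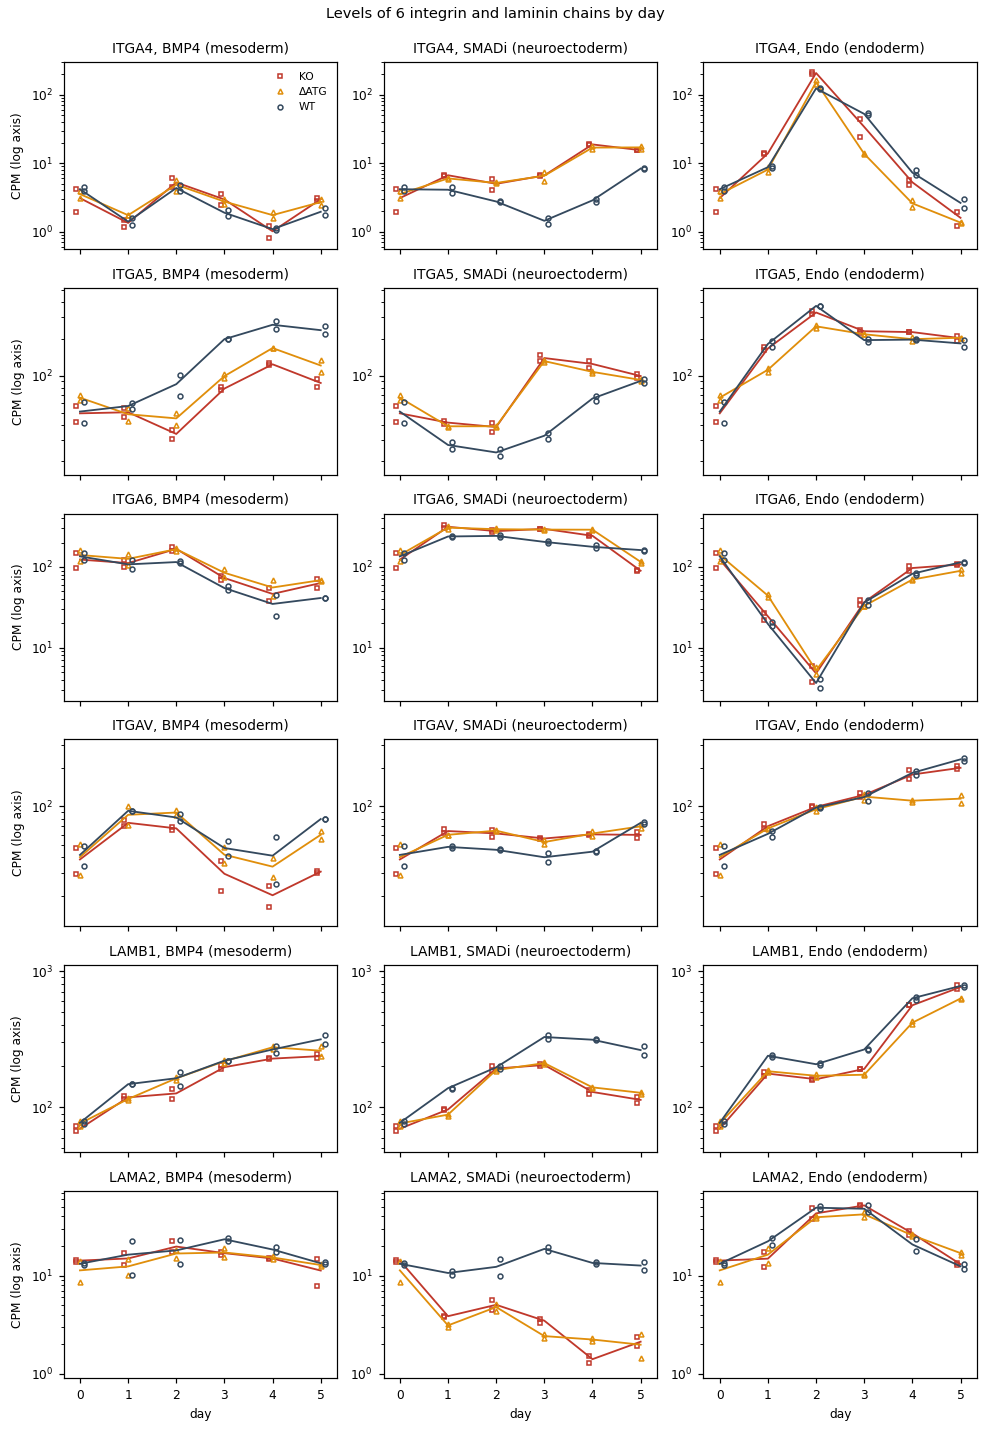
CPM of 6 chains (rows, log axis) by day in BMP4, SMADi and Endo (columns); points are single libraries and lines the means of KO, ΔATG and WT. ITGA6 dips and ITGA4 peaks at day 2 of Endo in all 3 lines, and in SMADi the edited lines lie above WT for ITGA4 and below it for LAMA2, with 2.34 and 1.90 CPM in KO, 2.51 and 1.44 in ΔATG and 13.8 and 11.5 in WT at day 5.

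The next question was whether the edits changed these chains before differentiation. At day 0, 1 of 37 members was called between KO and WT (3.57% of all genes were), 1 between ΔATG and WT (3.91%) and 0 between ΔATG and KO (2.82%) by edgeR's test. Between the edited lines 5 members had an unadjusted p under 0.05, and DESeq2 called 0. The one in KO was ITGB5, with 168 and 122 CPM in KO and 227 and 190 in WT (log2 change -0.52 ± 0.11, adjusted p = 0.00138). It was not called without KO b or without WT a, while leaving out KO a gave 5 called members in KO. The one in ΔATG was ITGB6, which was near 0 in every line; the ΔATG count was 0 without WT a or ΔATG b and 2 without WT b, and that between the edited lines was 4 without KO a. Libraries with the same letter deviated together at day 0, and with a block for the letter 3 members were called in KO, 2 in ΔATG and 1 between the edited lines. ITGB1 had 386 and 224 CPM in KO, 398 and 270 in ΔATG and 392 and 286 in WT, a wider spread between letters than between lines.

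With BMP4 the edited lines carried less RNA of several receptors and laminin chains that rise in this protocol. In KO 5 of 37 members rose and 15 fell over days 1 to 5, or 54.1% against 27.6% of all genes (12.5% higher, 15.1% lower), with a median log2 change of -0.28 beside 0.00 over all genes. In ΔATG 3 rose and 10 fell, or 35.1% against 15.7% (7.63% higher, 8.12% lower), with a median of -0.20 beside 0. Both edited lines share the WT libraries.

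ITGA5 (ENSG00000161638, chromosome 12 from 54395261 to 54419460) fell in both lines. At day 5 it had 80.7 and 94.2 CPM in KO, 135 and 108 in ΔATG and 219 and 253 in WT, and at day 3 it had 81.4 and 76.2 in KO, 103 and 96.4 in ΔATG and 200 and 198 in WT. KO libraries were lowest, ΔATG libraries in between and WT libraries highest on both days. Averaged over days 1 to 5, ITGA5 fell by 1.07 ± 0.06 in KO (adjusted p = 6.49e-21) and by 0.75 ± 0.06 in ΔATG (adjusted p = 1.64e-14) on the log2 scale. ITGA9 fell by 1.27 ± 0.08 in KO and 0.67 ± 0.08 in ΔATG, and at day 4 it had 10.2 and 10.3 CPM in KO, 27.4 and 18.9 in ΔATG and 52.0 and 44.2 in WT.

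ΔATG stood between KO and WT for several chains, and the direct test of ΔATG against KO called 8 members higher and 0 lower (21.6% against 12.5% of all genes, of which 8.26% higher and 4.25% lower), and 13 were called without the filter on low counts. With a block for the library letter, 13 were called higher and 1 lower. The 8 were ITGA5 (0.32 ± 0.06), ITGA8 (1.41 ± 0.40), ITGA9 (0.60 ± 0.08), ITGAV (0.56 ± 0.10), ITGB1 (0.26 ± 0.08), ITGB8 (0.80 ± 0.14), LAMB1 (0.18 ± 0.03) and LAMC1 (0.38 ± 0.05). The calls of ITGB1 and ITGA8 were lost when single libraries were left out, 7 for ITGB1 and 2 for ITGA8 (ΔATG day 1 a and ΔATG day 2 a). LAMC1, the gamma chain of most laminins, had 220 and 221 CPM in KO at day 5, 280 and 295 in ΔATG and 375 and 439 in WT, with no overlap between lines. Against WT, LAMC1 fell by 0.55 ± 0.05 in KO (adjusted p = 1.03e-13) and by 0.17 ± 0.05 in ΔATG (adjusted p = 0.00903). ITGAV, the vitronectin receptor chain, fell in KO (-0.73 ± 0.10, adjusted p = 3.23e-08) while ΔATG did not pass the test (-0.17 ± 0.10, adjusted p = 0.282). LAMB1 fell by 0.30 ± 0.03 in KO and by 0.12 ± 0.03 in ΔATG, the ΔATG call being lost without WT day 2 b, WT day 5 b or ΔATG day 5 a.

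ITGA6 and ITGA7, both laminin receptors, rose in both lines with BMP4. At day 5 ITGA6 had 70.9 and 55.5 CPM in KO, 67.4 and 69.8 in ΔATG and 41.2 and 41.2 in WT, and its log2 change over 5 days was 0.41 ± 0.08 in KO (adjusted p = 0.000106) and 0.56 ± 0.08 in ΔATG (adjusted p = 7.09e-07). Every edited library of that day lay above both WT libraries. ITGA7 rose by 0.31 ± 0.05 in KO and 0.29 ± 0.05 in ΔATG. ITGA3, the third of these receptors, fell in ΔATG (-0.20 ± 0.07, adjusted p = 0.0413), a call lost when single libraries were left out, and changed by -0.12 ± 0.07 in KO (adjusted p = 0.25).

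Markers of cell types moved with these calls in BMP4. Of 6 markers of primitive streak and mesoderm, 6 fell in KO and 6 in ΔATG, with sums of 56.6 to 133.7 CPM in KO, 60.9 to 251.2 in ΔATG and 145.9 to 428.2 in WT libraries. Of 6 pluripotency markers, 5 rose in KO and 4 in ΔATG, with sums of 3805 to 5568, 3958 to 5683 and 3025 to 5575 CPM in KO, ΔATG and WT. Of 6 fibroblast markers 3 fell in each line, with sums of 520.5 to 925.1 in KO, 502.5 to 1200.0 in ΔATG and 574.7 to 1652.0 in WT. Of 6 endoderm markers 5 fell and 1 rose in each line, with sums of 5.56 to 109.4 in KO, 5.91 to 184.1 in ΔATG and 10.9 to 396.8 in WT. Of 6 amnion and trophoblast markers 5 fell and 1 rose in KO and 2 fell in ΔATG, with sums of 35.3 to 95.1 in KO, 79.5 to 137.5 in ΔATG and 82.4 to 223.1 in WT. Of 6 neuroectoderm markers 2 rose in each line, with sums of 18.6 to 338.3 in KO, 22.2 to 230.0 in ΔATG and 19.1 to 83.5 in WT. Of 6 endothelium and blood markers 1 fell in KO and 0 in ΔATG, with sums of at most 2.29 CPM in any library. No marker of these lists was at 0 throughout a line, and their part in the result was not tested.

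**Figure D3:**
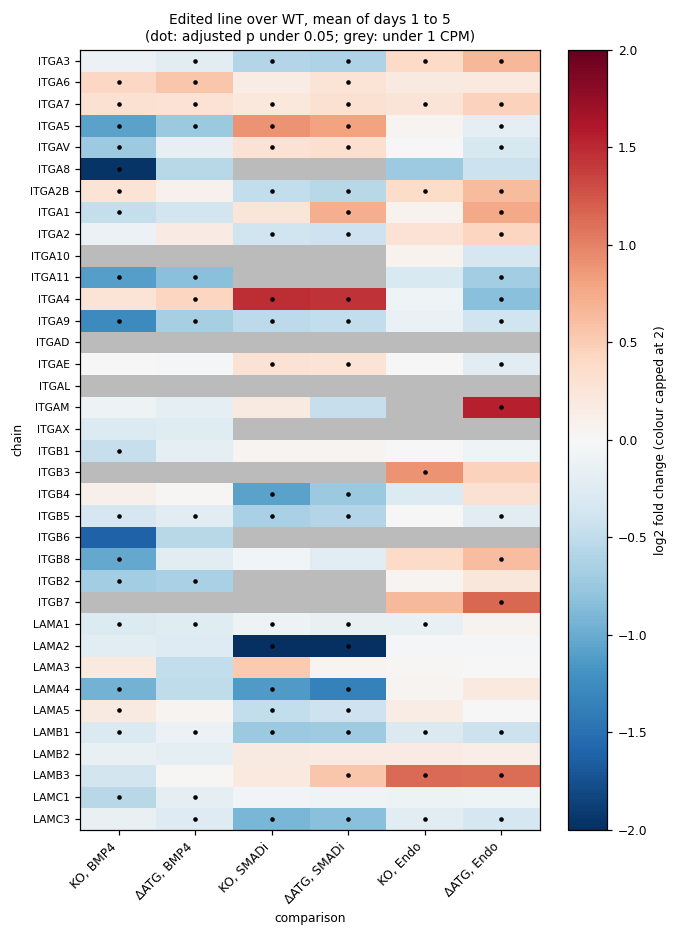
Log2 fold change of tested chains in KO and ΔATG over WT, averaged over days 1 to 5, by protocol; dots mark adjusted p under 0.05, grey marks chains under 1 CPM in both lines on every day, and colour is capped at 2 in either direction. LAMB1 is lower and ITGA7 higher in all 6 columns, while ITGA5 is lower in BMP4 and higher in SMADi in both lines.

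In SMADi the edited lines had more ITGA4 and ITGA5 and less of most laminin chains. In KO 5 members rose and 13 fell, or 48.6% against 46.5% of all genes (21.2% higher, 25.4% lower), and in ΔATG 8 rose and 14 fell, or 59.5% against 45.7% (20.9% higher, 24.8% lower). The share called in KO was thus near that of all genes. The median log2 change was -0.04 in KO and -0.15 in ΔATG, beside -0.01 in each over all genes. Among the 11 laminin chains tested, 0 rose and 7 fell in KO, and 1 rose and 7 fell in ΔATG. Both lines share the WT libraries.

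LAMA2 (ENSG00000196569, chromosome 6 from 128883141 to 129516569), the laminin alpha chain of muscle and nerve, was lower in the edited lines from day 1. It had 3.89 and 3.81 CPM in KO, 3.21 and 2.99 in ΔATG and 10.2 and 11.0 in WT at day 1, and at day 5 2.34 and 1.90 in KO, 2.51 and 1.44 in ΔATG and 13.8 and 11.5 in WT. All edited libraries lay below all WT libraries on each of the 5 days. Its change over 5 days was -2.20 ± 0.12 in KO (adjusted p = 2.11e-22) and -2.28 ± 0.12 in ΔATG (adjusted p = 6.83e-23). At day 0, before the protocol, LAMA2 had 13.9 and 14.5 CPM in KO, 8.56 and 14.0 in ΔATG and 13.4 and 12.9 in WT.

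LAMB1 (ENSG00000091136, chromosome 7 from 107923799 to 108003255) had 120 and 108 CPM in KO, 130 and 126 in ΔATG and 284 and 244 in WT at day 5. Over 5 days it fell by 0.74 ± 0.03 in KO (adjusted p = 7.81e-26) and by 0.71 ± 0.03 in ΔATG (adjusted p = 7.29e-25). Its share of the laminin beta total per kb was 38.0% ± 3.8 in KO, 43.4% ± 2.5 in ΔATG and 66.5% ± 3.5 in WT at day 5 (SD, n = 2), while LAMB2 was the largest share in both edited lines. LAMA5 fell by 0.49 ± 0.06 in KO and 0.41 ± 0.06 in ΔATG, and LAMA4, a laminin chain of vessel walls, by 1.14 ± 0.24 and 1.36 ± 0.25 in the same order. Averaged over the 5 days, LAMC1 did not pass the test in KO (-0.06 ± 0.05, adjusted p = 0.343) or in ΔATG (-0.09 ± 0.05, adjusted p = 0.122). Its effect varied with the day in edgeR's joint test of the daily contrasts (adjusted p = 0.000313 in KO and 0.0013 in ΔATG). In each edited line the LAMC1 libraries lay above both WT libraries on 1 day and below them on 3. ITGB5, the partner of alphaV, had 37.5 and 34.3 CPM in KO, 49.4 and 45.8 in ΔATG and 127 and 136 in WT at day 5, and fell by 0.66 ± 0.05 in KO and 0.58 ± 0.05 in ΔATG over the 5 days.

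ITGA4 (ENSG00000115232, chromosome 2 from 181457202 to 181536187) rose in both lines. At day 3 it had 6.61 and 6.64 CPM in KO, 7.57 and 5.56 in ΔATG and 1.58 and 1.31 in WT, and at day 4 it had 18.6 and 18.9 in KO, 17.6 and 16.2 in ΔATG and 2.76 and 2.98 in WT. Edited libraries lay above WT on each of the 5 days, and WT reached 8.24 and 8.46 CPM by day 5. Over the 5 days the log2 change was 1.47 ± 0.10 in KO (adjusted p = 2.4e-18) and 1.44 ± 0.10 in ΔATG (adjusted p = 6.11e-18). ITGA5 was highest at day 3 in the edited lines and at day 5, the last day, in WT. At day 3 it had 131 and 148 CPM in KO, 135 and 129 in ΔATG and 30.7 and 34.1 in WT. By day 5 its libraries were close together, with 103 and 96.8 in KO, 93.6 and 91.6 in ΔATG and 94.5 and 87.2 in WT. Its log2 change was 2.11 ± 0.14 in KO and 2.02 ± 0.14 in ΔATG at day 3, and 0.13 ± 0.14 in KO (adjusted p = 0.497) and 0.03 ± 0.14 in ΔATG (adjusted p = 0.947) at day 5.

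ITGA6 changed sign over the days of SMADi. At day 3 it had 298 and 295 CPM in KO, 294 and 286 in ΔATG and 208 and 200 in WT, while at day 5 it had 87.9 and 91.4 in KO, 119 and 112 in ΔATG and 160 and 164 in WT. The groups of edited and WT libraries did not overlap on either day. The change was 0.54 ± 0.18 in KO (adjusted p = 0.0221) and 0.51 ± 0.18 in ΔATG (adjusted p = 0.0339) at day 3, and -0.85 ± 0.19 in KO (adjusted p = 0.000201) and -0.48 ± 0.19 in ΔATG (adjusted p = 0.0397) at day 5. A joint test of the daily contrasts found that the effect of the edit varied with the day for 22 of 37 members in KO (32.1% of all genes) and for 19 in ΔATG (29.4%). In BMP4 the same test called 6 members in KO (8.42%) and 3 in ΔATG (1.63%).

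**Figure D4:**
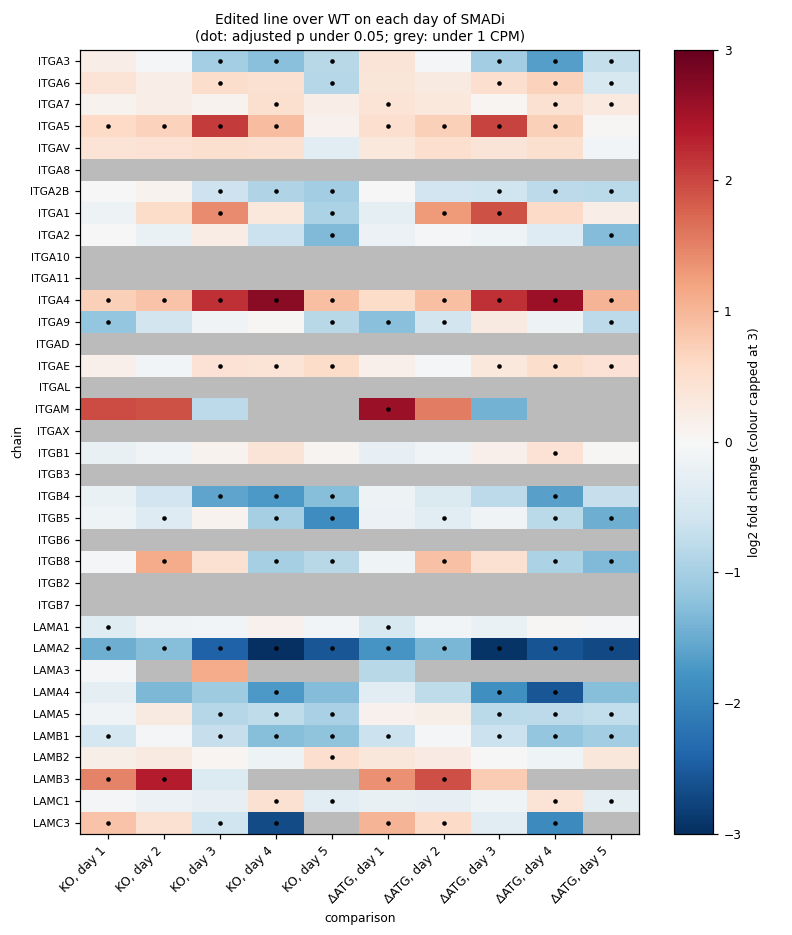
Log2 fold change of the chains over WT on each day of SMADi, in KO and then ΔATG, with dots at adjusted p under 0.05 and colour capped at 3. LAMA2 is below WT in every column, at -2.58 in KO and -2.71 in ΔATG at day 5, and ITGA5 is highest at day 3, at 2.11 in KO and 2.02 in ΔATG.

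Averaged over days 1 to 5, the edited lines were close to each other in SMADi. Single days were not tested between them. Some chains parted on a day, as ITGA6 did at day 5, with means of 89.6 CPM in KO and 116 in ΔATG and no overlap of libraries. Of 37 members, 0 were called between ΔATG and KO by edgeR's test (1.26% of all genes were), with 4 at an unadjusted p under 0.05 and a smallest adjusted p of 0.0588; DESeq2 called 1. Leaving out ΔATG day 1 b, ΔATG day 3 a or KO day 5 b gave 1 call, and leaving out ΔATG day 2 a gave 2. Of 27 members with at least 1 CPM in a group, 25 had a 95% interval of the log2 difference within 1 of 0 and 21 within 0.5. The intervals reached from -1.459 at the lowest bound to 0.815 at the highest. For ITGA4 the difference was -0.03 (interval -0.22 to 0.16) and for LAMB1 0.03 (interval -0.04 to 0.10).

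Markers moved with the edits in SMADi too. Of 6 pluripotency markers 5 fell in each edited line, with sums of 3323 to 5283 CPM in KO, 3525 to 5188 in ΔATG and 4485 to 6110 in WT. Of 6 neuroectoderm markers 3 rose and 2 fell in each line, with sums of 26.9 to 1130.0 in KO, 26.9 to 1028.0 in ΔATG and 11.8 to 868.9 in WT. Of 6 fibroblast markers 3 rose in each line, with sums of 126.7 to 1279.0 in KO, 136.0 to 1143.0 in ΔATG and 178.4 to 757.7 in WT, where DCN was at 0. Of 6 amnion and trophoblast markers 3 fell in each line, with sums of 1.93 to 53.2 in KO, 1.22 to 42.5 in ΔATG and 9.07 to 32.1 in WT. Of 6 markers of primitive streak and mesoderm 3 fell in each line, with sums of 0.372 to 1.99 in KO, 0.484 to 1.92 in ΔATG and 1.38 to 8.00 in WT. Of 6 endoderm markers, and of 6 endothelium and blood markers, 1 rose and 1 fell in each line, the endoderm sums being 7.81 to 80.3 in KO, 9.03 to 63.3 in ΔATG and 6.84 to 51.1 in WT. Their part in the result was not tested.

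In Endo fewer members were called in KO than in ΔATG. In KO 7 members rose and 3 fell, or 27% against 15.5% of all genes (7.25% higher, 8.27% lower), and in ΔATG 11 rose and 9 fell, or 54.1% against 34.7% (17.6% higher, 17.1% lower). The medians were 0.05 in KO and 0.14 in ΔATG, beside 0.00 and 0.02 over all genes. Without the filter on low counts 17 members were called in KO. Both lines share the WT libraries here too. LAMB3, a laminin beta chain of epithelia, had 12.3 and 11.7 CPM in KO, 6.43 and 5.77 in ΔATG and 2.35 and 3.38 in WT at day 3, and 15.6 and 18.8, 26.0 and 19.0, and 9.89 and 10.9 at day 5 in the same order. All edited libraries were above WT on both days. LAMB3 rose by 1.14 ± 0.15 in KO (adjusted p = 7.51e-08) and by 1.12 ± 0.15 in ΔATG (adjusted p = 2.33e-08).

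ITGA3, a laminin receptor of epithelia, also rose in both lines in Endo. It had 34.1 and 37.5 CPM in KO, 43.4 and 49.2 in ΔATG and 18.6 and 23.3 in WT at day 5, and edited libraries lay above WT on each of the 5 days. Its log2 change was 0.38 ± 0.07 in KO (adjusted p = 0.000119) and 0.67 ± 0.07 in ΔATG (adjusted p = 8.21e-11). LAMB1 fell by 0.29 ± 0.03 in KO and 0.44 ± 0.03 in ΔATG.

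The direct test of ΔATG against KO in Endo called 6 members higher and 8 lower (37.8% against 18.9% of all genes, of which 9.56% higher and 9.37% lower). ITGA4 had the deepest fall among them, at -0.76 ± 0.10 (adjusted p = 5.57e-08): at day 3 it had 13.9 and 13.5 CPM in ΔATG and 24.2 and 43.6 in KO, beside 51.1 and 53.7 in WT. Its ΔATG libraries lay below both KO libraries, which lay below both WT libraries. One day earlier the order differed, with 142 and 163 CPM in ΔATG and 200 and 215 in KO, beside 124 and 123 in WT. ITGAV (ENSG00000138448, chromosome 2 from 186590065 to 186680901) had 123 and 107 CPM in ΔATG and 195 and 206 in KO at day 5, beside 239 and 228 in WT, and differed by -0.33 ± 0.10 over the 5 days (adjusted p = 0.0116). The effect of the edit varied with the day for 3 members in KO (2.79% of all genes) and for 17 in ΔATG (15.7%).

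Of 6 endoderm markers, 0 were called in KO, and 1 rose and 3 fell in ΔATG, with sums of 2235 to 13910 CPM in KO, 1177 to 9769 in ΔATG and 2064 to 14440 in WT. Of 6 markers of primitive streak and mesoderm 5 fell in each line, with sums of 151.6 to 2932 in KO, 152.6 to 2375 in ΔATG and 221.8 to 2882 in WT. Of 6 fibroblast markers 3 rose and 1 fell in KO and 2 rose and 3 fell in ΔATG, with sums of 677.6 to 1154 in KO, 616.5 to 1210.0 in ΔATG and 615.0 to 1074 in WT. Of 6 pluripotency markers 1 rose in KO and 3 in ΔATG, with sums of 1329 to 3177 in KO, 1290.0 to 3463 in ΔATG and 1436 to 3310.0 in WT. Of 6 neuroectoderm markers 1 rose and 2 fell in each line, with sums of 103.5 to 884.0 in KO, 77.3 to 744.5 in ΔATG and 91.7 to 845.9 in WT. Of 6 amnion and trophoblast markers 1 fell in KO, and 1 rose and 3 fell in ΔATG, with sums of 14.4 to 49.5 in KO, 7.08 to 90.6 in ΔATG and 15.0 to 44.9 in WT. Of 6 endothelium and blood markers 0 were called in KO and 1 rose in ΔATG. No marker of these lists was at 0 throughout a line, and their part in the result was not tested.

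Across protocols, LAMB1 fell and ITGA7 rose in both edited lines in all 3, while other chains took opposite directions. The effect of KO differed between BMP4 and SMADi for 22 members (42.6% of all genes), and that of ΔATG for 18 (36.2%). For ITGA5 the KO effect was lower in BMP4 than in SMADi by 1.97 on the log2 scale and the ΔATG effect by 1.55, with a negative change in BMP4 and a positive one in SMADi in each line. Between Endo and SMADi 17 members differed in KO (31.7%) and 21 in ΔATG (39.1%), and between Endo and BMP4 16 in each line (21% in KO, 23.7% in ΔATG). All 16 of the KO differences between Endo and BMP4 were higher in Endo, as were 12 of the 16 in ΔATG, and of all genes 11.6% were called higher in KO and 12.1% in ΔATG.

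Genes that work with these chains were read from 3 lists, whose counts stand beside the share of all genes called. That share was 27.6% in KO and 15.7% in ΔATG with BMP4, 46.5% and 45.7% in SMADi, and 15.5% and 34.7% in Endo. Of 37 integrin adaptors and focal adhesion genes, 1 rose and 18 fell in KO with BMP4 (51.4%) and 1 rose and 13 fell in ΔATG (37.8%). TNS4, a tensin, fell by 1.32 in KO and 0.97 in ΔATG on the log2 scale, and FERMT1, a kindlin of epithelia that activates integrins, rose by 0.27 and 0.30. In SMADi 11 rose and 12 fell in KO and 14 rose and 9 fell in ΔATG (62.2% in each), and there FERMT1 fell by 1.98 in KO and 1.84 in ΔATG. In Endo 2 rose and 2 fell in KO (10.8%) and 5 rose and 18 fell in ΔATG (62.2%), and the direct test of ΔATG against KO called 3 higher and 16 lower (51.4% against 18.9% of all genes).

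Of 31 other ligands of basement membrane and matrix, 6 rose and 17 fell in KO with BMP4 (74.2%) and 4 rose and 15 fell in ΔATG (61.3%). FBN2, a fibrillin with an integrin-binding site, fell by 1.50 in KO and 0.89 in ΔATG, and NPNT, the ligand of alpha8 beta1, fell by 1.80 in KO. In SMADi 10 rose and 13 fell in each line (74.2%), with SMOC1 up by 2.01 in KO and 2.06 in ΔATG. In Endo 5 rose and 5 fell in KO (32.3%) and 9 rose and 11 fell in ΔATG (64.5%), where NID2, which links laminin to collagen IV, rose by 0.46 in KO and 1.98 in ΔATG. Of 17 other laminin receptors and integrin partners, 4 rose and 6 fell in KO with BMP4 (58.8%) and 3 rose and 2 fell in ΔATG (29.4%). In SMADi 7 rose and 8 fell in each line (88.2%). The tetraspanin CD9, which binds integrins in the membrane, fell by 2.33 in KO and 2.15 in ΔATG there, and CD82, another tetraspanin, rose by 1.46 and 1.30. In Endo 4 rose and 3 fell in KO (41.2%) and 7 rose and 6 fell in ΔATG (76.5%), and BCAM, a receptor of LAMA5, rose by 0.34 and 0.74.

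In the overexpression arm the labels were first set against LNCPRESS1 itself. At the late stage it had 153 and 152 CPM in libraries labelled lncPRESS1, 154 and 156 in ΔATG, 34.9 and 35.9 in lncSIRP and 32.9 and 32.6 in vector. At the early stage the libraries labelled lncPRESS1 had 32.3 and 53.8 CPM, ΔATG 144 and 156, lncSIRP 185 and 133 and vector 28.98 and 30.2. At the middle stage lncPRESS1 had 55.1 and 58.6, ΔATG 87.9 and 133, lncSIRP 13.7 and 13.4 and vector 47.8 and 36.3. The early lncSIRP libraries were thus as high as ΔATG, and the early and middle lncPRESS1 libraries were close to vector, so directions below belong to the libraries as labelled.

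Over the 3 stages, libraries labelled lncPRESS1 had 12 of 36 members higher and 7 lower than vector (52.8% against 45.8% of all genes). Those labelled ΔATG had 4 higher and 8 lower (33.3% against 24.2%) and those labelled lncSIRP 15 higher and 8 lower (63.9% against 49.9%). All constructs share the vector libraries. The effect varied with the stage for 23 members in lncPRESS1 (47.5% of all genes), 13 in ΔATG (14.2%) and 23 in lncSIRP (47.6%).

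Most of the calls in lncPRESS1 and lncSIRP came from the middle stage. In lncPRESS1 0 members were called early by edgeR's test, against 0.275% of all genes. An unadjusted p under 0.05 was found for 6 members, DESeq2 called 1 and edgeR without the filter called 3. At the middle stage 20 rose and 7 fell (57.4% of all genes), and late 2 rose and 9 fell (21.3%). In lncSIRP 1 rose and 2 fell early (8.79%), 19 rose and 7 fell at the middle stage (59.3%) and 2 rose and 6 fell late (20.5%). The early and late counts rested on single libraries: leaving out lncPRESS1 a gave 2 early, late lncPRESS1 had 2 without vector a or lncPRESS1 b and 6 without lncPRESS1 a, early lncSIRP had 0 without any one of its 4 libraries and 15 in a fit of the compared groups alone, and late lncSIRP had 1 without vector a or lncSIRP b. ITGAV had 1087 and 1008 CPM in middle lncPRESS1 libraries, 1240 and 1245 in lncSIRP, 57.4 and 53.4 in ΔATG and 50.1 and 51.6 in vector. The 4 libraries of lncPRESS1 and lncSIRP stood apart from the other 4, with log2 changes of 4.36 ± 0.29 in lncPRESS1 (adjusted p = 2.46e-09) and 4.61 ± 0.29 in lncSIRP (adjusted p = 1.35e-09). ITGA5 had 413 and 414 CPM in lncPRESS1, 419 and 466 in lncSIRP, 49.8 and 78.6 in ΔATG and 65.3 and 49.2 in vector at that stage. ITGA8, a receptor chain near 0 in stem cells, had 44.9 and 43.5 CPM in lncPRESS1, 37.8 and 41.2 in lncSIRP, 0 and 0.0139 in ΔATG and 0.0324 and 0 in vector.

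The same 4 middle libraries differed from vector in the marker sums given here. Sums of the endoderm, neuroectoderm, and endothelium and blood lists are not given, nor how many markers of a list rose or fell. A sum can rest on a single gene. Fibroblast markers summed to 3003 to 3107 CPM in lncPRESS1 and 3933 to 4063 in lncSIRP, against 650.4 to 661.9 in vector. Pluripotency markers summed to 1844 to 1854 in lncPRESS1 and 1888 to 1893 in lncSIRP, against 5423 to 5676 in vector, and amnion and trophoblast markers to 403.2 to 404.2 and 278.9 to 286.1, against 10.9 to 11.7. Markers of primitive streak and mesoderm summed to 604.8 to 616.1 in lncPRESS1 and 451.5 to 461.9 in lncSIRP, against 18.8 to 24.7 in vector. Their part in the result was not tested. In an average of the early and late stages alone, chosen after seeing the data, 1 member was called higher and 8 lower in lncPRESS1 (14.3% of all genes were called) and 4 higher and 8 lower in lncSIRP (25.7%), and ITGAV was at -0.40 in lncPRESS1 and -0.41 in lncSIRP.

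The libraries labelled ΔATG had 2 members higher and 9 lower early (23% of all genes were called), 0 and 4 at the middle stage (5.43%) and 3 and 9 late (19.8%), and the early count was 5 in a fit of the groups compared alone. LAMB1 was lower at every stage, with 115 and 115 CPM early, 117 and 112 at the middle stage and 66.1 and 72.4 late in ΔATG, against 201 and 200, 186 and 176, and 174 and 165 in vector. No ΔATG library overlapped a vector library. The log2 changes were -0.80 ± 0.08 early (adjusted p = 3.82e-06), -0.66 ± 0.08 at the middle stage (adjusted p = 3.14e-05) and -1.29 ± 0.08 late (adjusted p = 1.52e-08). ITGB5 and LAMA2 were also called lower at all 3 stages, ITGB5 by -0.73 ± 0.11, -0.57 ± 0.11 and -0.50 ± 0.11 in the order of the stages. LAMC3 had 21.7 and 21.0 CPM in late ΔATG libraries, 120 and 87.3 in lncPRESS1, 111 and 122 in lncSIRP and 52.4 and 61.5 in vector, so that ΔATG lay below vector and the other constructs above it. It fell by 1.41 ± 0.24 in ΔATG (adjusted p = 0.000598) and rose by 0.87 ± 0.23 in lncPRESS1 (adjusted p = 0.0158) and by 1.04 ± 0.23 in lncSIRP (adjusted p = 0.00653). The lncPRESS1 call was lost without vector a or lncPRESS1 a, and the lncSIRP call without vector a or lncSIRP b.

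**Figure D5:**
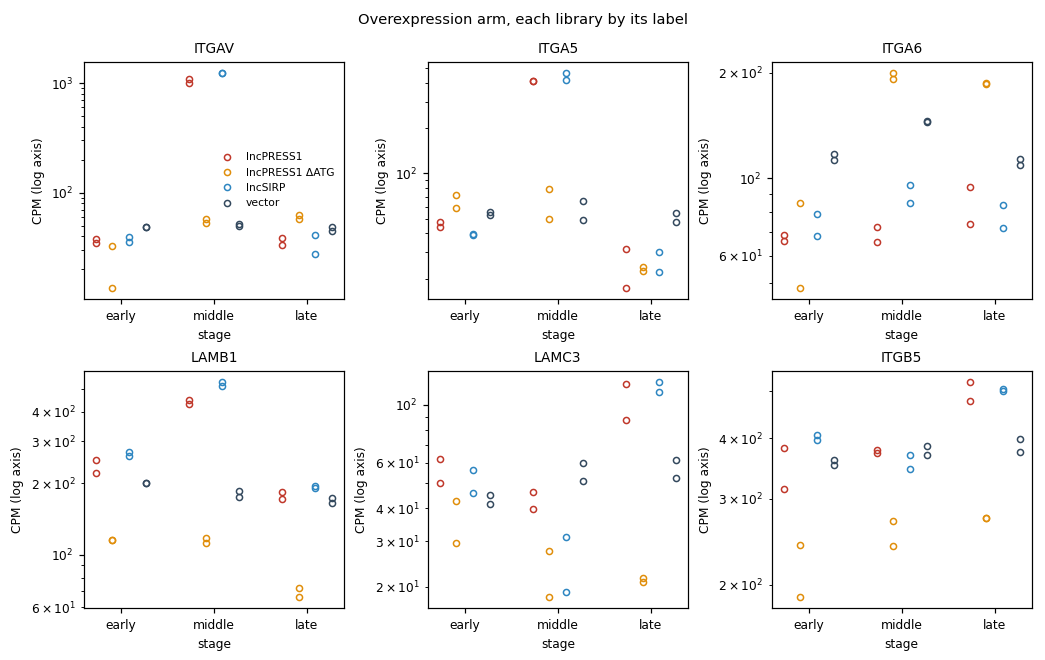
CPM (log axis) of ITGAV, ITGA5, ITGA6, LAMB1, LAMC3 and ITGB5 in each library of the overexpression arm by stage and label, in the order lncPRESS1, lncPRESS1 ΔATG, lncSIRP and vector. ITGAV lies from 1008 to 1245 CPM in the middle lncPRESS1 and lncSIRP libraries and reaches at most 62.3 in the others, and LAMB1 of the ΔATG label is below vector at each stage.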

How the data were processed

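Stranded polyA RNA libraries of H1 cells were sequenced by the authors, and the deposited values are expected counts, estimated for each gene and not whole, in a table named as length scaled. Per the submitters' processing notes the genome build is GRCh38; the sources used here give neither the aligner nor the quantifier. Counts were rounded. Both arms were fitted separately in R 4.3.3 with edgeR 4.0.16, one mean per group (48 and 12 residual degrees of freedom), after filterByExpr (25821 and 23300 genes left) and TMM scaling (factors 0.8575 to 1.114 and 0.8748 to 1.137). The quasi-likelihood F test was two-sided with Benjamini-Hochberg adjustment over all genes of a comparison and a call at an adjusted p under 0.05. The effect of an edit or construct is the mean of the daily or stage contrasts, and the SE is the log2 fold change divided by the square root of F. CPM per kb uses the merged exons of GENCODE 29. Alternatives were a block for the library letter, DESeq2 1.42.0 (Wald test, and its size factors), limma-voom (limma 3.58.1), no filter, a fit of the compared groups alone and each library left out, keeping the dispersion trend of the whole arm.

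The members, lists and markers were chosen with earlier results of these data known. Members were named from the 4 called with the largest rise and the 4 with the deepest fall among those of at least 1 CPM, the stem cell receptors and laminins, and others picked after their values were seen; not all of these are described, and the rest were given by counts. The values of 1 member are not reported here, and it stays in the counts of called members. Library letters were taken as pairs where every pair of groups deviated together above a correlation of 0.1, with the days of a protocol pooled. Over all tested genes this held at day 0 (3 of 3 pairs, 0.166 to 0.352) and in no whole protocol. Read by single days, it also held on days 1, 3 and 4 of BMP4 (0.151 to 0.229). The pipeline was tested on simulated data. The counts of both libraries differed beyond counting noise in every group.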

Additional observations from a re-analysis of the deposited data

Results flagged for a closer look

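For 8 of the members reported here the effect of an edit was called in opposite directions in a pair of protocols, and the difference between the protocols was itself called. Differences below are on the log2 scale, the effect in the first protocol minus that in the second.

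Between Endo and SMADi, the KO effect differed by 0.97 for ITGA3 and 0.86 for ITGA2B, each higher than WT in Endo and lower in SMADi. The ΔATG effect differed the same way for ITGA3 (1.28), ITGA2B (1.19) and ITGA2 (0.84). It ran the other way, lower than WT in Endo and higher in SMADi, for ITGA4 (-2.28), ITGA5 (-0.98), ITGAV (-0.65) and ITGAE (-0.48). These effects are means over days 1 to 5, and some changed sign within Endo. There the ΔATG libraries of ITGA2 lay above both WT libraries on 3 days and below on 2. For ITGA5 this was 2 days above and 2 below, for ITGAV 1 and 2, and for ITGA4 1 and 3. The joint test of the daily contrasts was called for each of these chains. ITGA3 and ITGA2B lay above WT on all 5 days, and ITGAE below.

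Between BMP4 and SMADi, the KO effect differed by -1.97 for ITGA5 and -1.03 for ITGAV, both lower than WT in BMP4 and higher in SMADi, and by 0.67 for LAMA5 and 0.77 for ITGA2B, which ran the other way. The ΔATG effect differed by -1.55 for ITGA5. The calls of LAMA5 and ITGA2B in KO with BMP4 were lost when single libraries were left out.

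Between Endo and BMP4, the ΔATG effect differed by 0.87 for ITGA3 and -1.27 for ITGA4. The call of ITGA3 in ΔATG with BMP4 was also lost without single libraries.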

How the results depend on the processing

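Counts below are members called. Without the filter on low counts they were 17 in place of 10 for KO over WT in Endo, and 13 in place of 8 for ΔATG over KO in BMP4. At day 0 that setting gave 2 in place of 1 in KO and in ΔATG. Between ΔATG and KO it gave 1 in place of 0 at day 0 and 3 in place of 0 in SMADi. In overexpression it gave 3 in place of 0 for early lncPRESS1, 7 in place of 4 for middle ΔATG and 7 in place of 3 for early lncSIRP. A fit of the compared groups alone gave 0 at day 0 in KO and in ΔATG, 1 for ΔATG over KO in SMADi, 5 in place of 11 for early ΔATG and 15 in place of 3 for early lncSIRP. DESeq2's Wald test gave 1 for ΔATG over KO in SMADi, 1 for early lncPRESS1 and 5 for early lncSIRP, and limma-voom gave 0 at day 0 in ΔATG. Why these counts moved was not tested.

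Library letters paired at day 0, where the block for the letter gave 3 in KO, 2 in ΔATG and 1 between the edited lines. In no whole protocol did every pair of groups pass. Over all tested genes 11 of 15 pairs were above 0.1 in BMP4, 0 of 15 in Endo, 0 of 15 in SMADi and 0 of 18 in overexpression. By single days of BMP4, every pair passed on days 1, 3 and 4 but not on days 2 and 5. On genes of mean log2 CPM of at least 1, a version added after the first was seen, 15 of 15 passed in BMP4, so that pairing there depends on the genes used, and 1, 0 and 4 passed in the others. Outside day 0 the block gave 16 in place of 10 for KO over WT in Endo and 14 in place of 8 for ΔATG over KO in BMP4 (13 higher, 1 lower), and no other count moved by over 1.5 times.

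Without single libraries, WT at day 5 against day 0 gave 15 to 19 in BMP4, 18 to 21 in SMADi and 23 to 26 in Endo. KO over WT gave 16 to 21 in BMP4, 17 to 20 in SMADi and 7 to 12 in Endo, and ΔATG over WT gave 11 to 15, 21 to 24 and 18 to 21 in the same order. ΔATG over KO gave 6 to 11 in BMP4, 0 to 2 in SMADi and 12 to 15 in Endo. Day 0 gave 0 to 5 in KO, 0 to 2 in ΔATG and 0 to 4 between them. Over all stages lncPRESS1 gave 16 to 19, ΔATG 11 to 13 and lncSIRP 19 to 23. By stage, lncPRESS1 gave 0 to 2 early, 21 to 26 at the middle and 2 to 8 late, ΔATG 11 to 13, 4 to 6 and 8 to 10, and lncSIRP 0 to 0, 24 to 26 and 1 to 7.

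Leaving out the middle stage, chosen after seeing the data, gave 9 members in place of 19 in lncPRESS1 and 12 in place of 23 in lncSIRP, of which 5 and 10 were also called with it. Signs were compared only for the largest called changes of each comparison and for the stem cell receptors and laminins. Among these, leaving out the middle stage, which held the opposite change, turned the sign of 15 log2 changes called either with or without it. In lncPRESS1 these became -0.40 for ITGAV, -1.09 for ITGA11, -0.23 for ITGB8, -0.10 for ITGA3, -0.24 for LAMA1, -0.10 for LAMC1, -0.35 for ITGB1 and -0.65 for ITGA5. In lncSIRP they became -1.38 for ITGA8, -0.75 for ITGA11, -0.41 for ITGAV, -0.16 for ITGA3, -0.11 for LAMC1, -0.35 for ITGB1 and -0.72 for ITGA5. Of the 15, LAMA1 and ITGB1 in lncPRESS1 were called only without the middle stage. Among the members whose signs were compared, no other setting turned the sign of a called one. Levels per kb with the longest transcript in place of merged exons moved by over 1 SD for 27 of 38 members. Depth limits the chains near 0, such as ITGB6, ITGAX and LAMB4, and 2 libraries a group limit every daily value.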

Other observations

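ITGA1, a collagen receptor chain, fell to below 1 CPM in WT cells in Endo. It had 10.5 and 8.41 CPM at day 0, 20.3 and 16.2 at day 2 and 0.236 and 0.500 at day 5, and the log2 change from day 0 to day 5 was -4.67 ± 0.46 (edgeR, adjusted p = 3.15e-13). At day 5 it had 1.10 and 1.06 CPM in ΔATG and 0.433 and 0.432 in KO, and over the 5 days it was higher in ΔATG than in KO by 0.68 ± 0.18 on the log2 scale (edgeR, adjusted p = 0.00433).

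ITGB4, the partner of alpha6 in hemidesmosomes, and ITGA2, another collagen receptor chain, were lower in the edited lines in SMADi. ITGB4 had 3.54 and 3.57 CPM in KO, 5.69 and 6.64 in ΔATG and 9.69 and 11.5 in WT at day 3, and over the 5 days it fell by 1.07 ± 0.16 in KO and 0.74 ± 0.16 in ΔATG on the log2 scale. ITGA2 had 5.47 and 5.27 CPM in KO, 5.55 and 5.35 in ΔATG and 14.3 and 12.4 in WT at day 5, with changes of -0.39 ± 0.13 in KO and -0.41 ± 0.13 in ΔATG over the 5 days (edgeR, adjusted p = 0.0084 and 0.00629). ITGA2B, the alpha chain of the platelet fibrinogen receptor, had 6.87 and 9.49 CPM in KO, 7.94 and 11.3 in ΔATG and 16.9 and 16.9 in WT on that day. No edited library overlapped WT for these chains on the days given.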
